A study of Mus musculus with 8 samples.

Results

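The genes described here encode the core histones H2A, H2B, H3 and H4, the linker histone H1, and several of their variants. They were chosen by name: every array probe counts whose transcript belongs to a mouse gene with a current symbol starting with H1f, H2ac, H2bc, H3c, H4c, H2az or H3f, or an older symbol such as Hist1h, H2afz, H2afv or H3f3. No measured value enters that rule, but the group was proposed with earlier results of these data in view, so its counts are given as descriptions. The rule gave 84 genes in the RefSeq table. Of these, 54 had a probe on the array, out of 37018 genes or transcripts in all, and 52 passed the filter on low signals, out of 23341. H1f3 and H1f7 did not pass it. The 52 tested genes fall into 42 replication-dependent genes of the histone clusters and 10 variant genes, which lie outside the clusters or, for H1f6, H2ac1 and H2bc1, are expressed mainly in testis.

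RNA was taken from ureteric bud (UB) cells of newborn C57BL/6 mice (postnatal day 0), sorted from kidneys as GFP-positive cells. The UB is the epithelial tube that branches into the collecting duct tree. The series compared 4 wild-type samples (WT 1 to WT 4) with 4 samples, labelled DOT1-null (KO 1 to KO 4), in which Dot1 had been deleted in cells positive for Hoxb7. Each sample lay in Cy5 on its own 2-colour array, with RNA of WT 3 in Cy3 on every array, so each value below is a log2 ratio of a sample to WT 3. The Cre line, the GFP source, the animals per sample and the litters are not given in the labels. The p-values therefore measure the spread between these 4 and 4 samples, which may be partly technical.

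Core histones form the protein spool of the nucleosome, and H1 binds the DNA between spools. Replication-dependent histone genes are short, lack introns, lie in clusters and are transcribed in S phase, when new DNA needs new nucleosomes; their mRNAs end in a stem-loop and usually carry no poly(A) tail. Variant histones such as H2A.Z and H3.3 are made throughout the cell cycle from polyadenylated mRNAs. DOT1L, the protein of the deleted gene, is a methyltransferase that acts on histone H3 within the nucleosome.

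The promoters of the 4 tested cluster H1 genes and of H2bc18, H2bc14 and H2bc8 are shown because, within H1 and within H2B, some genes had differences far below 0 and others near or above it. H2bc8 was added after its values were seen. Each line gives the 130 bases before the annotated start, from 5′ to 3′ on the strand of the gene, from RefSeq on the build GRCm38.p6. Capitals mark 4 motifs, each searched for on both strands. They are the CCAAT box, which reads ATTGG where it lies on the other strand, the TATA motif in its form TATAAA, and the octamer ATTTGCAT, which is bound by OCT factors. In H1 genes only, capitals also mark AAACACA, known as the H1 box.
H1f1 (chr13:23763538-23763667, plus strand): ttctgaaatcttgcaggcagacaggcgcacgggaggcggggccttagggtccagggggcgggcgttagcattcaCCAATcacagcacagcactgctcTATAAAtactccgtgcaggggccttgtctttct
H1f5 (chr13:21780626-21780755, minus strand): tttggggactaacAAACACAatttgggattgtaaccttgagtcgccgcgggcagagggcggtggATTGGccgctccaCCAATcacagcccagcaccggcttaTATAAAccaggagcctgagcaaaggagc
H1f4 (chr13:23622559-23622688, minus strand): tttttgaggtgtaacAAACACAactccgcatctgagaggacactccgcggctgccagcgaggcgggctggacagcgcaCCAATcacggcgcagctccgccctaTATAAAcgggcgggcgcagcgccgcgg
H1f2 (chr13:23738677-23738806, plus strand): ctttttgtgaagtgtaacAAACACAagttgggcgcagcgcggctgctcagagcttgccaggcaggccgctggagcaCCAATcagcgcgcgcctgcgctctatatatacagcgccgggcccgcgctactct
H2bc18 (chr3:96269570-96269699, plus strand): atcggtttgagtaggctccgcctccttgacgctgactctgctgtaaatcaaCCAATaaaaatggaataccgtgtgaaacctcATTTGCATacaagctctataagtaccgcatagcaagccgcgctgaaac
H2bc14 (chr13:21721914-21722043, plus strand): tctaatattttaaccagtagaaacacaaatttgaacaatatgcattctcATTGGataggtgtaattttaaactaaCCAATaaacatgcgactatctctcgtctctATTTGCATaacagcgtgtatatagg
H2bc8 (chr13:23571270-23571399, plus strand): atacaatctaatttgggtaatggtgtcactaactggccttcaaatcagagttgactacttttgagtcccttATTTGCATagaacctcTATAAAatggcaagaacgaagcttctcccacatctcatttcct
In the H1 promoters a CCAAT lay 52 to 56 bases before the start. H1f5, H1f4 and H1f2 held the H1 box 112 to 117 bases before it, and no AAACACA was found in the window of H1f1. H1f1, H1f5 and H1f4 had TATAAA within 33 bases of the start, whereas these letters were not found in the window of H1f2. Among the H2B genes, TATAAA was found in the window of H2bc8 and not in those of H2bc18 and H2bc14. Only this exact form was searched for. The windows of H1f2 and H2bc14 hold tatata near the start and that of H2bc18 tataag, so a lack of TATAAA is not a lack of any TATA motif. CCAAT, on either strand, lay 79 bases before the start in H2bc18 and 55 and 81 in H2bc14, and was not found in the printed window of H2bc8. The octamer lay 48 bases before the start in H2bc18, 25 in H2bc14 and 59 in H2bc8, and the motifs did not overlap each other.

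A promoter was in the table for 49 of the 54 genes, and the search used the 250 bases before the start. CCAAT was found in 32 of 38 replication-dependent promoters, against 33.9% of all 32851 promoters in the table. The 6 without it were H4 promoters, of which 2 of 8 held it. TATAAA was found in 20 of 38, against 12.4% of all promoters. The octamer was found in 11 of 38, against 1.60% of all promoters, and those 11 were 6 of 12 H2A and 5 of 8 H2B promoters. The H1 box was found in 4 of 5 cluster H1 promoters, against 6.25% of all promoters. Among the 11 variant promoters, 8 held CCAAT, 3 TATAAA, 3 the octamer and 4 the H1 box. These are letter matches, and no binding was measured.

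The KO arrays were brighter than the WT arrays. Median Cy5 intensity was 93.5 to 107.5 on the WT arrays and 122, 137, 636 and 126 on KO 1 to KO 4. KO 3 stood apart: 95.2% of its spots were well above background, against 52.4% to 56.2% on the WT arrays, and 7665 of its spots were marked as outlying, against 175 to 216 on the WT arrays. Per the file headers, the 8 arrays shared 1 slide on which each genotype filled a row of its own. Genotype and position on the slide therefore cannot be told apart. Dot1l read 0.03, -0.05, -0.11 and 0.07 on WT 1 to WT 4 and 0.35, 0.03, -0.04 and 0.30 on KO 1 to KO 4, a difference of 0.18 ± 0.11 (SE; limma adjusted p = 0.342) on this probe. With median centring in place of loess its difference was -0.18, and the labels do not say which exons were deleted or whether this probe covers them. Of the markers of UB and collecting duct, 18 of 18 were well above background on all WT arrays.

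Replication-dependent histone mRNAs read lower in the KO samples than in WT as a group, while the 10 variant genes that the rule takes showed no common direction. Variants outside the rule, given further below, were all below 0. Of the 42 replication-dependent genes, 35 had a difference below 0, and their median difference (KO minus WT, log2) was -0.52. Over all 23341 genes tested the median was -0.02, and 54.1% were below 0. Among 10 variant genes, 6 were below 0, with a median of -0.03. Those above 0 include H1f8, which passed the filter through the KO arrays alone. Those below 0 include H2bc1, whose probe cannot be assigned to H2bc1 alone. No histone gene passed an adjusted p of 0.05 in the limma fit across all genes, and 2 genes of the whole table did, which is 0.00857% of those tested. Without adjustment, 31 of the 52 histone genes had a p under 0.05, as did 5615 genes or 24.1% of the table.

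Of the 41 replication-dependent genes with a value on all 8 arrays, 21 (51.2%) had all 4 KO values below all 4 WT values, and for 0 the order was the opposite. Over the whole table, the KO arrays lay below all WT arrays for 7.64% of genes and above them for 3.85%. The 21 genes include 7 H2A genes, given below, whose probes had nearly the same profile and may read shared transcripts. The 51.2% is therefore not a share of separate signals. Of the 10 variant genes, 1 had separate groups, H1f10, which was lower in KO. In samples of many cells, fewer cells of a kind and less mRNA per cell cannot be told apart.

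**Figure D1:**
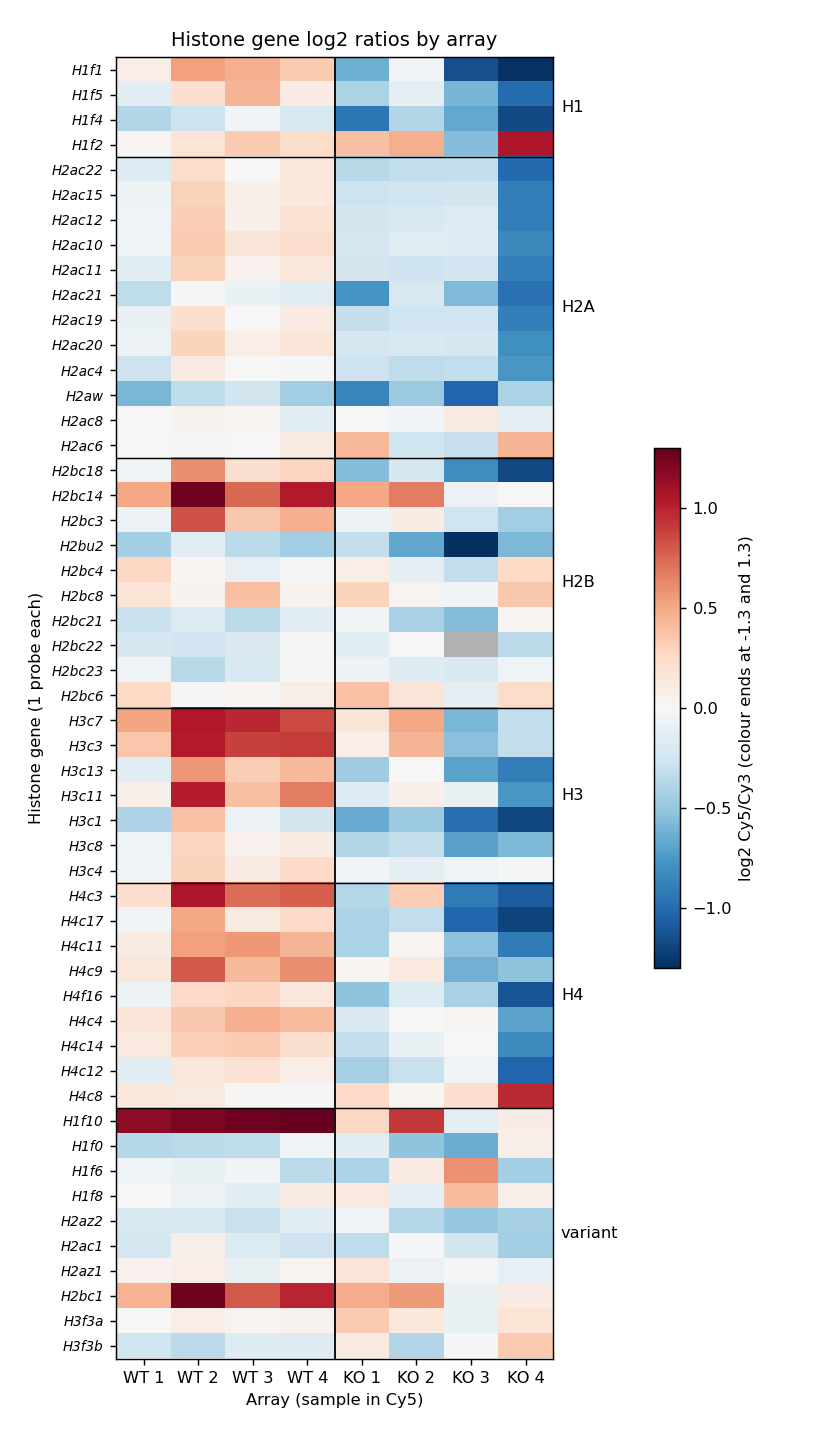
Each row is 1 of the 52 tested histone genes and each column 1 array, coloured by the log2 ratio of the sample (Cy5) to WT 3 (Cy3), with genes grouped by type and variants at the bottom; grey marks the missing value of H2bc22 on KO 3. Most replication-dependent rows are red or pale on the WT arrays and blue on the KO arrays, with KO 4 the deepest for 24 of 41 genes.

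The arrays differed within each group. The median ratio of the replication-dependent genes was -0.05, 0.28, 0.10 and 0.15 on WT 1 to WT 4, and -0.24, -0.15, -0.32 and -0.76 on KO 1 to KO 4. All 4 KO medians were thus below all WT medians, with WT 1 the nearest WT array. WT 1 gave the lowest WT value for 32 of the 41 genes and WT 2 the highest value of all arrays for 24. KO 4 gave the lowest value of all arrays for 24 genes and KO 3 for 13. KO 2 lay nearest to WT, with the highest KO value for 20 genes, yet it was below every WT array for 28 of 41. KO 1 was below every WT array for 30 genes, KO 3 for 37 and KO 4 for 30. The variant genes had medians of -0.03, -0.00249, -0.12 and -0.00348 on WT 1 to WT 4 and 0.12, -0.05, -0.09 and 0.07 on KO 1 to KO 4, so the groups overlapped.

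**Figure D2:**
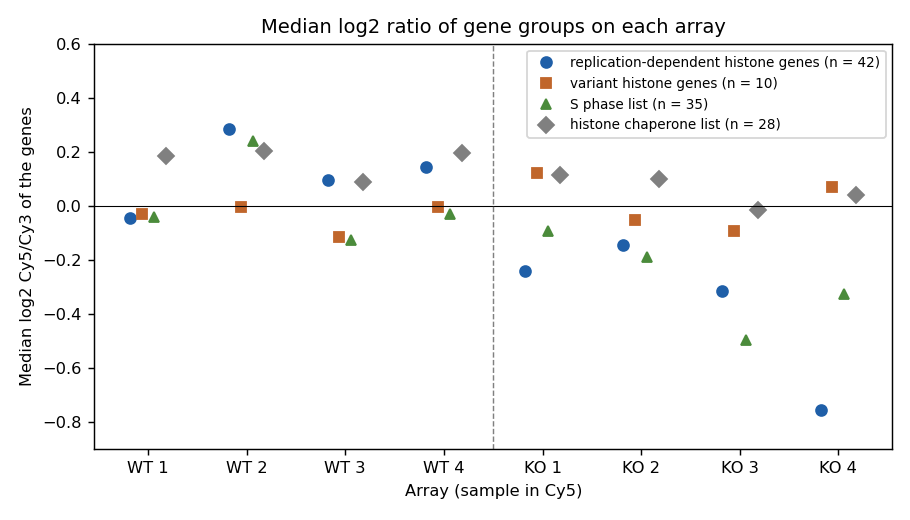
Points give the median log2 ratio (Cy5 over Cy3) on each array of the replication-dependent histone genes, the variant histone genes, the S phase list and the histone chaperone list, with WT arrays left of the dashed line and KO arrays right of it. The replication-dependent genes range from -0.05 to 0.28 on WT arrays and from -0.76 to -0.15 on KO arrays.

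Linker histones compact the chromatin fibre between nucleosomes. H1f1, a replication-dependent H1 gene, read 0.08, 0.53, 0.46 and 0.34 on WT 1 to WT 4 and -0.63, -0.04, -1.14 and -1.28 on KO 1 to KO 4. All KO values were below all WT values, and KO 2 was close to the lowest WT array. The mean ratio of the WT arrays was 0.36 ± 0.20 (SD, n = 4) and that of the KO arrays -0.77 ± 0.56 (SD, n = 4), a difference of -1.13 ± 0.25 (SE; limma adjusted p = 0.106), or 2.19-fold. H1f4, another cluster H1 gene, read -0.38, -0.27, -0.04 and -0.21 on WT 1 to WT 4 and -0.94, -0.38, -0.67 and -1.17 on KO 1 to KO 4. Its groups were also separate, by a small gap between WT 1 and KO 2, and the difference was -0.57 ± 0.16 (SE; limma adjusted p = 0.117).

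H1f5 read -0.13, 0.21, 0.44 and 0.11 on WT 1 to WT 4 and -0.42, -0.13, -0.61 and -1.003 on KO 1 to KO 4. The groups met at WT 1 and KO 2, and the difference was -0.70 ± 0.19 (SE; limma adjusted p = 0.112). H1f2 stood apart from the other cluster H1 genes. It read 0.03, 0.18, 0.34 and 0.24 on WT 1 to WT 4 and 0.39, 0.47, -0.56 and 1.05 on KO 1 to KO 4. The KO arrays lay on both sides of WT, with KO 4 the highest and KO 3 the lowest of all arrays, and the difference was 0.14 ± 0.28 (SE; limma adjusted p = 0.784).

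Of the 12 tested H2A cluster genes, 10 were below 0, the median difference was -0.49, and 8 had separate groups. H2ac22 read -0.17, 0.23, 0.01 and 0.14 on WT 1 to WT 4 and -0.36, -0.32, -0.31 and -1.01 on KO 1 to KO 4. KO 4 was far below the other KO arrays, and all KO arrays were below WT. The difference was -0.55 ± 0.17 (SE; limma adjusted p = 0.121). H2ac15 had a difference of -0.53 ± 0.16 (SE; limma adjusted p = 0.121), and its second probe gave -0.51.

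These H2A values rest on fewer signals than genes. The probes of H2ac10, H2ac11, H2ac12, H2ac15, H2ac19, H2ac20 and H2ac22, a set chosen after the values were seen, differed from each other by at most 0.20 on any array. Their correlations over the 8 arrays, which share 1 Cy3 RNA, were 0.995 to 0.999, and their differences were between -0.55 and -0.47. H2A cluster genes have nearly the same coding sequence, so these 7 values may be readings of shared transcripts and cannot be assigned to single genes. The same limit holds for other near-identical cluster genes.

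At the other end of H2A, H2ac6 read -0.00371, -0.01, 0.01 and 0.12 on WT 1 to WT 4 and 0.44, -0.26, -0.30 and 0.44 on KO 1 to KO 4. KO 1 and KO 4 were above all WT arrays and KO 2 and KO 3 below them, and the difference was 0.05 ± 0.18 (SE; limma adjusted p = 0.884). H2ac8 was near 0 on every array, with a difference of 0.00371 ± 0.09 (SE; limma adjusted p = 0.986). H2ac8 was well above background on only 2 WT and 3 KO arrays, so this value has little signal behind it.

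H2B was divided. Of 10 tested cluster genes, 7 were below 0 but the median was -0.04, and 1 of the 9 with all 8 values had separate groups. The median depended on the setting: it was -0.23 over probes well above background on all 8 arrays, -0.17 with the scanner ratio, -0.36 with Cy5 alone, -0.38 with median centring, and -0.13 to 0.02 with 1 array left out (-0.13 without KO 4). That gene, H2bc18 in the cluster on chromosome 3, read -0.04, 0.60, 0.21 and 0.28 on WT 1 to WT 4 and -0.57, -0.23, -0.81 and -1.18 on KO 1 to KO 4. KO 4 and KO 3 were lowest and WT 2 highest. The WT mean was 0.26 ± 0.26 (SD, n = 4) and the KO mean -0.70 ± 0.40 (SD, n = 4), a difference of -0.96 ± 0.20 (SE; limma adjusted p = 0.105), or 1.94-fold.

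H2bc14 read 0.50, 1.26, 0.75 and 1.03 on WT 1 to WT 4 and 0.50, 0.66, -0.08 and -0.01 on KO 1 to KO 4. KO 1 equalled WT 1 and KO 2 was above it, so the groups overlapped, and the difference was -0.62 ± 0.21 (SE; limma adjusted p = 0.137). H2bc6 and H2bc23, the H2B genes with the highest differences, had 0.08 ± 0.12 (SE) and 0.03 ± 0.10 (SE), and their groups overlapped. H2bc23 was well above background on 2 WT arrays and all 4 KO arrays. H2bc8, whose promoter is printed above with the octamer it has in common with H2bc18 and H2bc14, had a difference of -0.01 ± 0.12 (SE).

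The H2B genes near 0 were in part those annotated with long transcripts. In the RefSeq table, 5 tested replication-dependent genes span more than 1000 bases: H2bc6, H2bc22, H2bc4, H2bc23 and H2bc21, with spans of 37455, 14079, 8282, 3788 and 2667 bases. This split was made after the values were seen. Their differences were between -0.06 and 0.08, 2 of 5 were below 0, and 0 had separate groups. H2bc22 had no value on KO 3, so its fit used 7 arrays, and it was well above background on 3 WT and 3 KO arrays. The other 37 genes span 375 to 903 bases. Of these 37, 33 were below 0, with a median of -0.55, and 21 had separate groups, among them the H2A genes of nearly the same profile. The 5 long genes are all H2B, so the 2 sets differ in histone type as well as in span. The short H2B genes H2bc18, H2bc14, H2bc3, H2bu2 and H2bc8 had differences of -0.96, -0.62, -0.57, -0.39 and -0.01. Of these, only H2bc18 had separate groups.

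All 7 tested cluster H3 genes were below 0, with a median of -0.78, and 4 had separate groups. H3c7 read 0.51, 1.04, 0.98 and 0.85 on WT 1 to WT 4 and 0.16, 0.50, -0.60 and -0.32 on KO 1 to KO 4. All KO arrays were below WT, KO 2 by the smallest gap, and the difference was -0.91 ± 0.23 (SE; limma adjusted p = 0.112). H3c3 had a difference of -0.88 ± 0.22 (SE; limma adjusted p = 0.112) with a profile close to that of H3c7 (r = 0.993 over 8 arrays), and its KO 2 value lay above WT 1.

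H3c8 read -0.06, 0.28, 0.06 and 0.10 on WT 1 to WT 4 and -0.38, -0.31, -0.71 and -0.59 on KO 1 to KO 4. Its KO arrays lay close together and all below WT. The difference of -0.59 ± 0.12 (SE; limma adjusted p = 0.103) had the smallest adjusted p of the 52 genes. H3c4 was the H3 gene nearest to 0, at -0.21 ± 0.09 (SE; limma adjusted p = 0.21), and its values on KO 1 and KO 4 lay just above WT 1.

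Of 9 tested H4 cluster genes, 8 were below 0, with a median of -0.71, and 6 had separate groups. H4c3 had the lowest difference of all histone genes. It read 0.22, 1.05, 0.73 and 0.77 on WT 1 to WT 4 and -0.37, 0.33, -0.92 and -1.08 on KO 1 to KO 4. KO 2 was above WT 1, so the groups overlapped, while KO 3 and KO 4 were far below every WT array. The WT mean was 0.69 ± 0.35 (SD, n = 4) and the KO mean -0.51 ± 0.64 (SD, n = 4), a difference of -1.20 ± 0.30 (SE; limma adjusted p = 0.112), or 2.3-fold.

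H4c17 read -0.04, 0.50, 0.12 and 0.25 on WT 1 to WT 4 and -0.41, -0.32, -1.03 and -1.20 on KO 1 to KO 4. All KO arrays were below WT, and the difference was -0.95 ± 0.21 (SE; limma adjusted p = 0.106). H4c12 had a difference of -0.52 ± 0.19 (SE; limma adjusted p = 0.151), and its second probe gave -0.70. H4c8 was the one H4 gene above 0. It read 0.13, 0.11, 0.02 and -0.03 on WT 1 to WT 4 and 0.25, 0.02, 0.22 and 0.97 on KO 1 to KO 4. KO 4 was far above the other arrays and KO 2 was among the WT values, and the difference was 0.31 ± 0.18 (SE; limma adjusted p = 0.327).

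**Figure D3:**
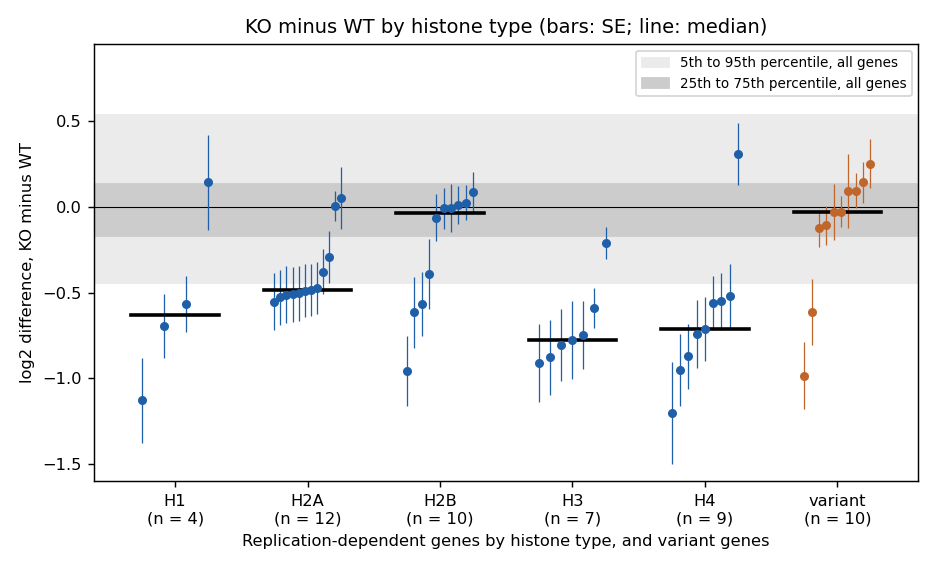
Each point is the log2 difference (KO minus WT) of 1 tested histone gene with its standard error, ordered within its type, and the black lines are medians; the grey bands hold the middle part of all 23341 genes, from -0.17 to 0.14 (25th to 75th percentile) and from -0.45 to 0.53 (5th to 95th percentile). Nearly all H3 and H4 points and most H2A points lie below the light band, whereas H2B and the variants spread from far below it up to 0.08 and 0.25.

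By chromosome, the replication-dependent genes below 0 were annotated to every cluster, though some probes may read genes of another cluster. In the large cluster on chromosome 13, 25 of 32 genes were below 0, with a median of -0.54. In the cluster on chromosome 3, 7 of 7 were below 0, with a median of -0.49. The 2 genes on chromosome 11 had a median of -0.34, and the single H4 gene on chromosome 6, H4f16, had a difference of -0.71. H4f16 is named here after its values were seen.

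Among the variants, H1f10 differed most. H1f10 encodes a linker histone and lies outside the histone clusters. It read 1.16, 1.23, 1.26 and 1.44 on WT 1 to WT 4 and 0.26, 0.92, -0.12 and 0.09 on KO 1 to KO 4. All WT arrays lay well above WT 3 in Cy3, the array of WT 3 itself included, so the 2 dyes read this probe unequally and only the difference between groups is used. The same limit holds for other genes: the array of WT 3 read 0.98 for H3c7, 0.73 for H4c3 and -0.33 for H1f0. All KO values were below all WT values, with KO 2 the nearest. The WT mean was 1.27 ± 0.12 (SD, n = 4) and the KO mean 0.29 ± 0.45 (SD, n = 4), a difference of -0.98 ± 0.20 (SE; limma adjusted p = 0.105), or 1.98-fold.

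The other somatic variants had differences between -0.13 and 0.25. H1f0, the linker histone known from cells that have stopped dividing, had a difference of -0.03 ± 0.16 (SE; limma adjusted p = 0.928). H2az1 and H2az2 encode the 2 forms of H2A.Z, a variant found at promoters, and had differences of -0.03 ± 0.09 (SE; limma adjusted p = 0.873) and -0.13 ± 0.11 (SE; limma adjusted p = 0.511). H3f3a and H3f3b both encode H3.3, the H3 variant placed into chromatin outside replication. H3f3a had a difference of 0.10 ± 0.10 (SE; limma adjusted p = 0.591), and its second probe gave -0.16.

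H3f3b read -0.26, -0.34, -0.17 and -0.17 on WT 1 to WT 4 and 0.11, -0.38, -0.02 and 0.34 on KO 1 to KO 4. KO 2 was below all WT arrays and the other KO arrays were above all of them. The difference was 0.25 ± 0.14 (SE; limma adjusted p = 0.307), and the other 2 probes gave 0.41 and 0.13. The differences of H3f3a and H3f3b had standard errors of 0.10 and 0.14, beside a median difference of -0.78 in the cluster H3 genes. With median centring in place of loess, both were below 0, at -0.58 and -0.50, in a setting where the median of all genes was -0.30 and that of the replication-dependent genes -1.21.

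The testis-linked genes were read as follows. H2bc1 had a difference of -0.61 ± 0.19 (SE; limma adjusted p = 0.126). Its probe followed that of the cluster gene H2bc14, within 0.112 on every array after centring and with r = 0.991 over 8 arrays, so its values cannot be assigned to H2bc1 alone. H1f6 and H2ac1 had differences of 0.09 ± 0.21 (SE) and -0.11 ± 0.12 (SE). H1f8, an oocyte linker histone, was well above background on 0 of the 4 WT arrays and on all 4 KO arrays. It thus passed the filter through the KO arrays alone, so the selection itself favoured a higher reading in KO. By the Cy5 channel, after scaling between arrays, the KO mean was 1.94-fold the WT mean. That value rests on KO 3 and was 1.20-fold without that array, so no difference is read from it. By ratio it had a difference of 0.14 ± 0.12 (SE; limma adjusted p = 0.493).

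**Figure D4:**
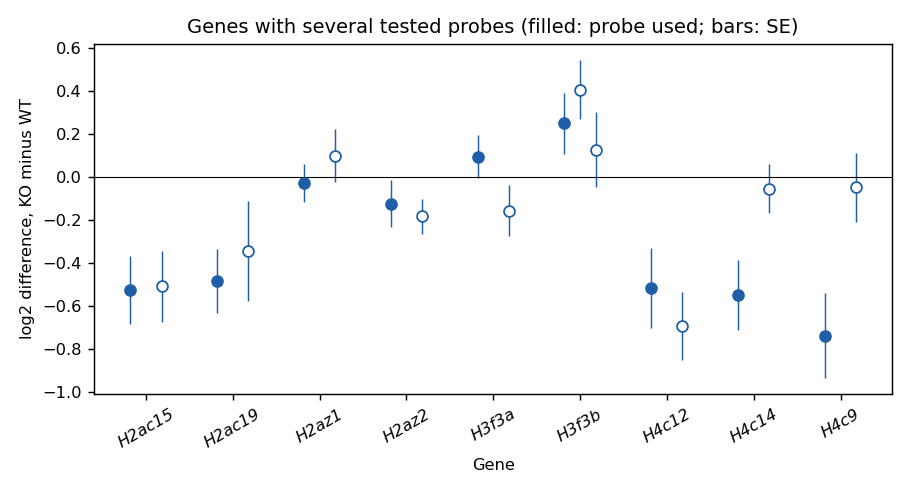
For the 9 histone genes with more than 1 tested probe, points give the log2 difference (KO minus WT) of each probe with its standard error, filled for the probe used as the value of the gene. For H4c9 and H4c14 the probe used lies well below 0 while the other lies at -0.05.

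For 43 of the 52 tested genes a single probe was tested, and for 9 there were several. In H2ac15, H2ac19, H2az2 and H4c12 all probes of the gene had the same sign, as they did in H3f3b. In H4c9 the brighter probe gave -0.74 and the other -0.05, and in H4c14 they gave -0.55 and -0.05. H2az1 gave -0.03 and 0.10. The probes of 1 gene thus disagreed in size or sign for H4c9, H4c14, H2az1 and H3f3a. H4c9 and H4c14 are named after their values were seen.

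The count of histone genes past the threshold depended on 1 array. KO 2 was the KO array nearest to WT for the replication-dependent genes, so leaving it out favours larger differences. It had 181 outlying spots, beside 175 to 216 on the WT arrays. The calls without it are given to show this dependence and not as support. With KO 2 left out, 27 histone genes were lower in KO at an adjusted p of 0.05 in limma, 25 of them replication-dependent, and 1 was higher. That is 51.9% of the 52 tested genes lower and 1.92% higher. Over the whole table it was 11.2% lower and 10.0% higher, or 4947 genes in all. H1f10 then had a difference of -1.19 (adjusted p = 0.000854), H1f1 of -1.37 (adjusted p = 0.00221) and H4c3 of -1.48 (adjusted p = 0.00374). The gene higher in KO was H3f3b, with a difference of 0.38 (adjusted p = 0.0346). KO 2 was the KO array of H3f3b that lay below all WT arrays. The standard error of H1f1 was 0.25 with all arrays and 0.17 without KO 2, and that of H1f10 was 0.20 and 0.11.

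With KO 2 and KO 3 both left out, 27 histone genes (51.9% of those tested) were again lower in KO and 2 (3.85%) were higher. Over the whole table these shares were 10.1% and 13.5%. Of the lower genes, 24 were in common with those found without KO 2 alone. The genes higher were H3f3b and H2ac6, with differences of 0.46 and 0.41. KO 2 lay below all WT arrays for H3f3b, as did both KO 2 and KO 3 for H2ac6. Leaving these arrays out thus raises both differences by itself, and these calls are not support for a change. With any other single array left out, KO 3 included, 0 histone genes passed. The median of the replication-dependent genes stayed between -0.60 and -0.38 when each array was left out in turn, and it was -0.70 without KO 2 and KO 3.

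The genes that make and load histones were set beside them, in lists drawn up from gene function. Of 27 tested genes of histone gene transcription and histone mRNA processing, 20 were below 0, with a median of -0.14, and 0 passed the test. The smallest p-values belonged to E2f1, a transcription factor of S phase entry, at -0.59 ± 0.15 (SE; limma adjusted p = 0.112), to Ccne1, the cyclin E gene, at -0.57 ± 0.15 (SE; limma adjusted p = 0.112), and to Tut7, which adds uridines to histone mRNAs during their decay, at 0.38 ± 0.11 (SE; limma adjusted p = 0.117). Ccne1 had no value on KO 3 and its other probe gave 0.10. All KO arrays were below WT for E2f1 and above WT for Tut7.

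Of 28 tested histone chaperone genes, 15 were below 0, with a median of -0.04, and 0 passed. Asf1b, a chaperone of H3 and H4 in dividing cells, read 0.26, 0.46, 0.26 and 0.61 on WT 1 to WT 4 and -0.42, 0.05, -0.37 and -0.40 on KO 1 to KO 4. All KO arrays were below WT, and the difference was -0.68 ± 0.13 (SE; limma adjusted p = 0.103). Mcm2, a subunit of the replicative helicase that also binds H3 and H4, had a difference of -0.50 ± 0.11 (SE; limma adjusted p = 0.106). Ubn2, of the complex that places H3.3, had 0.51 ± 0.14 (SE; limma adjusted p = 0.114), and its other probe gave 0.12.

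Of 6 tested variant genes that the naming rule does not take, 6 were below 0, with a median of -0.34, and 0 passed. Separate groups, all lower in KO, were seen for 4 of these 6 (66.7%), against 7.64% of all genes. Macroh2a1, which encodes a large H2A variant of repressed chromatin, read 1.14, 1.17, 0.93 and 1.02 on WT 1 to WT 4 and 0.58, 0.79, 0.28 and 0.22 on KO 1 to KO 4. All KO arrays were below WT, the difference was -0.60 ± 0.13 (SE; limma adjusted p = 0.106), and its other probes gave -0.38 and -0.65. H2ax, whose protein marks broken DNA, had a difference of -0.38 ± 0.09 (SE; limma adjusted p = 0.112), and H2bfm one of -0.31 ± 0.10 (SE; limma adjusted p = 0.132).

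The S phase list, whose proteins copy DNA, had a median difference of -0.30, with 32 of 35 genes below 0 and 15 of 31 with separate groups, all lower in KO. With 1 array left out, this median ranged from -0.37 to -0.19, the latter without WT 2. Its medians were -0.04, 0.24, -0.13 and -0.03 on WT 1 to WT 4 and -0.09, -0.19, -0.50 and -0.33 on KO 1 to KO 4. KO 1 was above WT 3, so these medians overlapped, while those of the replication-dependent histone genes did not. By gene, however, the shares were close. Separate groups, lower in KO, were seen for 48.4% of S phase genes, 51.2% of replication-dependent histone genes and 7.64% of all genes. Below 0 were 91.4% of S phase genes, 83.3% of replication-dependent histone genes and 54.1% of all genes. The part that cell cycle makeup has in the histone values was not tested.

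Markers of other cell types were also read, and their part in the histone values was not tested. For nephron progenitors and stroma, 13 of 15 markers were well above background on all WT arrays (not Foxd1 or Tbx18), 13 of 14 tested were below 0, the median was -0.47, and the summed Cy5 intensity was 20186 to 42306 in WT and 18151 to 36503 in KO. For leukocytes, 8 of 10 tested markers were below 0, the median was -0.19, and the sum was 8135 to 12303 in WT and 7395 to 40596 in KO. Of the 9 leukocyte markers with all 8 values, 3 (33.3%) had all KO arrays below WT, against 7.64% of all genes. This count was 1 of 14 for nephron progenitors and stroma and 2 of 17 for UB and collecting duct. It was 0 for nephron epithelium, endothelium and erythroid cells. For nephron epithelium, 12 of 12 were above background, the median was -0.14, and the sum was 18289 to 39982 in WT and 18141 to 38338 in KO. For endothelium, 8 of 8 were above background, with a median of 0.14 and sums of 23075 to 55260 in WT and 33624 to 39594 in KO. For erythroid cells, 2 of 9 tested markers were below 0, with a median of 0.17 and sums of 27586 to 198826 in WT and 109959 to 154208 in KO. These sums overlapped between WT and KO for each of these lists, but overlap does not show that single arrays had the same makeup. The median ratios of nephron progenitor and stroma markers were 0.99, 1.08, 0.07 and 0.66 on WT 1 to WT 4. On KO 1 to KO 4 they were -0.11, 1.10, 0.23 and 0.53. Those of erythroid markers were 0.17, -2.83, 0.36 and -0.81 on WT 1 to WT 4, and -0.39, -0.27, -0.67 and -0.17 on KO 1 to KO 4. The sum of UB and collecting duct markers was 116195 to 137698 in WT and 145159 to 169865 in KO. By ratio, however, 10 of the 18 tested UB and collecting duct markers were below 0, with a median of -0.009.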

How the data were processed

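Expression was measured on 8 Agilent 2-colour arrays, 4 WT and 4 KO. The deposited scanner files hold an intensity per spot and dye, which the authors extracted with Agilent Feature Extraction (version 10.7.3.1 in the submitters' processing notes). Their annotation is for the build mm9. They also hold a log10 ratio that the authors' scanner software normalised, per the file headers, and the deposited series value table repeats that log10 ratio. Median intensities were taken, since mean signals are not in these files. Background was corrected with normexp (offset 50, which draws dim probes towards 0) and loess was applied within each array to the log2 ratios, Cy5 over Cy3, in limma 3.58.1 under R 4.3.3. Outlying spots were left out and spots of a probe averaged. A probe was tested where 4 or more of 8 arrays had Cy5 well above background and each group had 3 or more values, and the brightest probe stood for its gene. Of 37850 systematic names, 21717 matched the RefSeq table of GRCm38.p6.

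The KO minus WT difference was tested in limma (lmFit, eBayes; 2-sided), without a block, with Benjamini-Hochberg adjustment over 23341 genes or transcripts. The fit was tested on simulated data with independent noise for each gene and array. That simulation held no effect shared by the genes of an array, so it does not cover the dependence on KO 2. The histone genes, the lists and the alternatives were chosen with earlier results of these data known. Named by rule were Dot1l, all tested variant genes, the 2 lowest and 2 highest differences per type of the replication-dependent genes, any histone gene past the threshold, and the 3 smallest p-values of each list on histone mRNA, chaperones and other variants. Other names were chosen after values were seen. Same-numbered WT and KO arrays deviated from their group means with correlations of -0.24, 0.05, 0.11 and -0.02, so the numbers were not taken as pairs. The number of arrays limits the precision. Background calls of single leukocyte and erythroid markers are not reported here.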

Additional observations from a re-analysis of the deposited data

Results flagged for a closer look

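In a group of 4 arrays, the highest or lowest array was marked where its gap to the nearest array took up more of the range of the group than Dixon's critical value allows, which chance gives in about 1 of 20 groups. Of 64 groups tested among the named genes, 4 were marked. H2ac22 read -1.01 and H2ac15 read -0.90 on KO 4, far below the other KO arrays. H1f0 read -0.0454 on WT 4, above the other WT arrays. H2ac6 read 0.12 on WT 4, above the other WT arrays.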

How the results depend on the processing

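The fit was repeated under 21 alternatives. The count of genes past the threshold, 2 in the whole table, was 1 with a normexp offset of 0, without background subtraction or with the mean of the probes of a gene, 0 with median centring or Cy5 alone, 5 with scaling between arrays, 4 without a filter, 11 with an intensity trend and robust variances together, 5509 without KO 2 and KO 3, and 1 to 4947 with 1 array left out. With the replicate number as a block, 0 genes were called. The count of histone genes past the threshold was 0 to 28 with 1 array left out (28 without KO 2) and 29 without KO 2 and KO 3, and it was 0 under each other alternative run. The number of histone genes lower in KO with separate groups, 22, was 37 with median centring, where the same count over all genes went from 1621 to 5308. The median of the replication-dependent genes was -1.21 with median centring, and that of the variants -0.54 with median centring and -0.17 with Cy5 alone, where the median of all genes was -0.30 and -0.18. With 1 array left out, the replication-dependent median ranged from -0.60 to -0.38.

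Genes near 0 changed sign. H1f0 was at 0.00619 without background subtraction, 0.0232 with scaling and 0.25 without KO 2 and KO 3. H1f6 was at -0.0809 with an offset of 0, -0.0138 with the scanner ratio, -0.0140 with the series table and -0.30 without KO 2 and KO 3. H2az1 was at 0.0360 with the mean of probes and 0.0104 without KO 2 and KO 3. H3f3a was at -0.58 with median centring, -0.0799 with Cy5 alone and -0.0308 with the mean of probes. Median centring gave -0.50 for H3f3b, -0.20 for H1f2, -0.33 for H2ac8, -0.00374 for H2ac6, -0.14 for H2bc6, -0.0393 for Tut7 and -0.18 for Dot1l. Cy5 alone gave -0.18 for H1f2, -0.31 for H2ac8, -0.0734 for H2ac6, -0.0510 for H2bc23 and -0.36 for H2bc6. H2ac8 was at -0.0767 with an offset of 0, -0.0931 without background subtraction, -0.72 with the scanner ratio and the series table, and -0.0444 without KO 2 and KO 3. H2bc23 was at -0.0613 without background subtraction and -0.0360 with the scanner ratio and -0.0364 with the series table. With 1 array left out, H1f0 ranged from -0.16 to 0.0819, H1f6 from -0.12 to 0.23, H2az1 from -0.0857 to 0.00382, H1f2 from -0.0944 to 0.44, H2ac8 from -0.0376 to 0.0425, H2ac6 from -0.0683 to 0.18 and H2bc23 from -0.0468 to 0.0801. The cause of these changes was not tested.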
